A study of Mus musculus with 9 samples.

Results

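Fatty acid synthesis and desaturation genes were followed in cultured mouse heart cells deprived of oxygen, glucose and serum. They are the 10 genes Acly, Acaca, Fasn, Elovl6, Scd1, Scd2, Elovl5, Fads2, Fads1 and Srebf1, chosen by gene symbol from the 55401 genes of the count table, and all 10 were among the 16762 genes with enough counts to be tested. The series holds RNA-seq counts of 9 libraries from primary neonatal mouse ventricular myocytes (NMVMs), the muscle cells of newborn heart ventricles grown in culture. All cells came from WT C57BL/6J pups aged 1 day and were grown in DMEM with 10% FBS. The control group stayed in that complete medium in normal oxygen. The hypoxia group was washed, moved to DMEM lacking glucose and serum and kept for 6 h in a sealed chamber from which an AnaeroPack removes oxygen. The hypoxia + rSRGN group had the same medium and chamber for 6 h, with recombinant serglycin (rSRGN), a secreted proteoglycan core protein, added over that time. Each group has 3 libraries. Low oxygen, loss of glucose and loss of serum came together and cannot be told apart in any comparison with control.

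Fatty acids are built in the cytosol from acetyl-CoA. ATP citrate lyase (Acly) makes acetyl-CoA from citrate, acetyl-CoA carboxylase (Acaca) turns it into malonyl-CoA, and fatty acid synthase (Fasn) joins these units into palmitate. Elovl6 lengthens palmitate to stearate, and the stearoyl-CoA desaturases Scd1 and Scd2 put the first double bond into such saturated chains. A separate branch, with the desaturases Fads2 and Fads1 and the elongase Elovl5, turns dietary polyunsaturated fatty acids into longer and less saturated ones. Srebf1 encodes SREBP-1, a transcription factor held in the endoplasmic reticulum membrane until SCAP escorts it to the Golgi for cleavage, and many of these enzymes are among its known targets. Adult heart muscle mainly burns fatty acids, and malonyl-CoA there is also a brake on their entry into mitochondria.

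Promoter sequences are shown first, for the genes of this group that rose in hypoxia and have a promoter in the RefSeq table of build GRCm38.p6 (Acly, Fads2 and Elovl5), and for Fasn, which was not called. Of the 10 genes, 7 had an entry, with 9 promoters in all, and Scd1, Scd2 and Fads1 had none. Each sequence runs from 250 bases before the annotated start to 50 bases after it, 5′ to 3′ on the strand of the gene. Capitals mark matches on either strand to CCAAT (the NF-Y box), GGGCGG (the GC box), CACGTG (the E-box), ACGTG (the core of the hypoxia response element, which every CACGTG contains) and TCACNCCAC (a sterol regulatory element).
Acly promoter, chr11:100527951-100528250, minus strand: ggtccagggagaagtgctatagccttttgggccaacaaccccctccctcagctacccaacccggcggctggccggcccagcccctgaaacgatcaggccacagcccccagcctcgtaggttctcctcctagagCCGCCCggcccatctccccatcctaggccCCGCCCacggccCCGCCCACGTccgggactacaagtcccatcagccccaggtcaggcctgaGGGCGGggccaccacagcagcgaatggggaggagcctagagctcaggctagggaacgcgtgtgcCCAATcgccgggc
Fads2 promoter, chr19:10101454-10101753, minus strand: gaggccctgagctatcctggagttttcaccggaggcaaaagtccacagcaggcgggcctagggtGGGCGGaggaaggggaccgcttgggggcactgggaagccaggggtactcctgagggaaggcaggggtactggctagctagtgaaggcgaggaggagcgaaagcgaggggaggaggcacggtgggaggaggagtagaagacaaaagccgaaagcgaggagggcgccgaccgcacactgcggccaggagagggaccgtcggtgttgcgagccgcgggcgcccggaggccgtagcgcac
Elovl5 promoter, chr9:77917115-77917414, plus strand: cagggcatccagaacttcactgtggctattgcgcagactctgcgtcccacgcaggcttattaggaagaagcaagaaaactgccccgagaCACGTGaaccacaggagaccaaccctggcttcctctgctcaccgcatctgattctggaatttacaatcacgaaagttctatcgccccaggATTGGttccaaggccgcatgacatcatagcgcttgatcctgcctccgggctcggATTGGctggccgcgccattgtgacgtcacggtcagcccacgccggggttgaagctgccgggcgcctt
Fasn promoter, chr11:120824498-120824797, minus strand: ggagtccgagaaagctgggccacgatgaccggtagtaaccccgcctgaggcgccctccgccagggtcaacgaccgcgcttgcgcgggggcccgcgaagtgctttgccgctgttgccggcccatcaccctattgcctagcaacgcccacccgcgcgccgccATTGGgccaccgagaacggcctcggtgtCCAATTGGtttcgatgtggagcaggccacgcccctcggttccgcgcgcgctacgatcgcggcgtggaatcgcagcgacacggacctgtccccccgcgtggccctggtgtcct
The Acly promoter held 4 GC boxes, 1 CCAAT and 1 ACGTG, the Fads2 promoter 1 GC box alone, and the Elovl5 promoter 1 CACGTG and 2 CCAAT. The Fasn promoter held 3 CCAAT, of which a pair share bases, and none of the other motifs. Over the 7 genes, CCAAT stood in the promoters of 4, GGGCGG in 3, ACGTG in 3 (Acly, Elovl5 and Elovl6) and CACGTG in 1. TCACNCCAC was in 0 of the 9 promoters. Of the 27025 genes with promoters of the same length in the table, 41.1% held CCAAT, 38.2% GGGCGG, 21.8% ACGTG, 8.09% CACGTG and 1.44% TCACNCCAC in at least 1 promoter, and of all 32851 promoters 1.24% held TCACNCCAC. These matches describe the letters in these windows alone. Among the enzymes that make palmitate and their regulator, 4 genes lie on chromosome 11 (GRCm38), Acly at chr11:100476353-100528000, Fasn at chr11:120805846-120824547 and Srebf1 at chr11:60199089-60222581 on the minus strand, and Acaca at chr11:84129672-84401651 on the plus strand. Elovl5 lies at chr9:77917364-77984519 and Elovl6 at chr3:129532355-129638495, both on the plus strand.

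The depth was 21669017 to 22781557 counts per library in control, 16583985 to 18148474 in hypoxia and 16640239 to 20826701 in hypoxia + rSRGN. The 10 genes together took 0.422 to 0.461% of the counts in control, 0.454 to 0.463% in hypoxia and 0.537 to 0.551% in hypoxia + rSRGN, so the range with rSRGN lay above both others. The library labelled hypoxia replicate 3 stood apart from the other hypoxia libraries on the second principal component, at -35.5 against -14.5 and -13.3, and for the 10 genes, calls that change without it are named. The cultures held the defining genes of cardiomyocytes, and these moved with the groups. Over 12 such genes the summed level was 44488 to 54516 CPM (counts scaled to a common library size) in control, 3925 to 6107 in hypoxia and 7728 to 8320 with rSRGN, with 12 of 12 lower in hypoxia than in control and 9 of 12 higher with rSRGN than in hypoxia. For 10 fibroblast genes the sums were 8773 to 10377, 17346 to 20113 and 19114 to 19686 CPM, and 8 of the 10 were higher in hypoxia. In bulk RNA, fewer cells of a type and less RNA per cell cannot be told apart. Fat cells are rich in most of these enzymes. Of the fat cell genes, Lep had 0 counts in all libraries and Adipoq 4, 1 and 1 counts over the 3 groups, while Lipe had 816, 250 and 239 and Fabp4 490, 346 and 387. The summed level of the 10 fat cell genes was 17.9 to 22.9 CPM in control, 13.5 to 19.7 in hypoxia and 14.5 to 15.9 with rSRGN. Plin1 went from 3 counts in control to 182 in hypoxia and Cfd from 1 to 81. Of 8 macrophage genes, 7 were lower in hypoxia than in control and Cx3cr1 was higher, with 18 counts in control and 6100 in hypoxia, and of 8 endothelial genes 5 were lower. Of 6 smooth muscle and pericyte genes 1 was lower, while their summed level was 1566 to 1867 CPM in control and 2142 to 2458 in hypoxia. The counts of higher and lower marker genes in this paragraph follow the call rule given below. By that rule 26.4% of all genes tested were higher and 25.1% lower in hypoxia than in control. With rSRGN against hypoxia, 2.27% were higher. Mitochondrially encoded genes took 8.30 to 9.51% of counts in control, 5.28 to 5.77% in hypoxia and 4.82 to 5.64% with rSRGN. The part of these differences in the results below was not tested.

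The first comparison asks what 6 h of hypoxia in glucose- and serum-free medium does to these transcripts. Acly, Scd1, Elovl5, Fads1 and Fads2 rose, Scd2 fell, and Fasn, Acaca, Elovl6 and Srebf1 were not called. Calls required both a fold of 1.5 or more and an adjusted p under 0.05 (edgeR's quasi-likelihood test, adjusted over all genes tested by the Benjamini-Hochberg method). So 5 of the 10 were higher and 1 was lower, against a background in which 51.6% of all genes tested were called, 26.4% higher and 25.1% lower. The median log2 fold change was 0.61 over the 10 genes and 0.05 over all genes tested. The labels do not say whether libraries of a group came from separate cultures or litters, so the p-values measure only the spread between these samples, which may be technical.

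Among the enzymes that make palmitate, Acly changed the most. Its level, in CPM scaled by TMM, was 259, 283 and 266 in the control libraries, 485, 515 and 484 in hypoxia and 499.7, 517 and 535 in hypoxia + rSRGN. Every hypoxic library lay above every control library, and the fold in hypoxia was 1.84 (log2 fold change 0.88, SE 0.069, adjusted p = 1.71e-10). Acaca, the next enzyme, stood at 65.7, 73.5 and 72.8 CPM in control, 108, 105 and 96.4 in hypoxia and 119.9, 127 and 119 with rSRGN. Its groups did not overlap either, but the difference of 1.46-fold between hypoxia and control (log2 0.55, SE 0.075, adjusted p = 9.93e-07) stayed under the fold limit. Without hypoxia replicate 3, Acaca passed the limit at log2 0.59, and it also passed at 0.62 when libraries were scaled by their size alone. Fasn, the enzyme at the end of this line, was at 409.7, 541 and 477 CPM in control and 436, 477 and 430.2 in hypoxia. The hypoxia libraries lay within the control range, and the log2 difference was -0.09 (SE 0.086, adjusted p = 0.362). Without control replicate 1, the lowest of its group, it was -0.21 (adjusted p = 0.0318), under the fold limit. With rSRGN, Fasn was at 567, 602 and 624 CPM, above every library of the other groups.

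The stearoyl-CoA desaturases moved in opposite directions. Scd1 was at 476, 506 and 480.0 CPM in control, 874, 993 and 873 in hypoxia and 1102, 1171 and 1075 with rSRGN, a rise in hypoxia of 1.87-fold (log2 0.91, SE 0.074, adjusted p = 3.09e-10). Scd2, by CPM per kb the most abundant of the 10 genes in every group, was at 2513, 2579 and 2373 CPM in control, 1378, 1344 and 1257 in hypoxia and 1832, 1841 and 1733 with rSRGN. Its level fell in hypoxia by 0.91 on the log2 scale, a fold of 1.88 (SE 0.073, adjusted p = 2.25e-10). The groups overlapped for neither gene, and the library spread within a group was small beside both changes. Both lie on chromosome 19, Scd1 at chr19:44394455-44407879 on the minus strand and Scd2 at chr19:44293674-44306864 on the plus strand (GRCm38). Their coding sequences were identical at 90.3% of aligned bases. Of the 50-base windows, 4.66% of those of the Scd1 transcript and 4.01% of those of Scd2 occurred in another gene, and fragments that the aligner placed at several genes were left out of the counts.

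Elovl6, which links palmitate to the Scd substrates, was at 70.9, 67.6 and 71.4 CPM in control, 94.5, 109 and 96.4 in hypoxia and 126, 131 and 120.5 with rSRGN. The hypoxia libraries were all above control, by 1.43-fold (log2 0.52, SE 0.075, adjusted p = 2.5e-06), which is under the fold limit. In the polyunsaturated branch, Fads2, its first desaturase, had the largest rise of the 10 genes. It was at 185, 187 and 191 CPM in control, 396, 379 and 402 in hypoxia and 366, 404 and 381 with rSRGN, a rise of 2.09-fold in hypoxia (log2 1.07, SE 0.068, adjusted p = 4.67e-12). Fads1, the second desaturase of the branch, was at 180.5, 181 and 182 CPM in control, 325, 361 and 331 in hypoxia and 328, 348 and 349 with rSRGN. It rose 1.87-fold (log2 0.90, SE 0.069, adjusted p = 9.58e-11), and its control libraries differed by less than those of any other of these genes. Elovl5, the elongase between them, was at 93.0, 88.9 and 89.9 CPM in control, 134, 163 and 136 in hypoxia and 154, 157 and 150.2 with rSRGN. Its rise of 1.59-fold (log2 0.67, SE 0.078, adjusted p = 9.25e-08) rested partly on hypoxia replicate 2, the highest of its group, and without that library the log2 fold change was 0.57, below the limit. Fads1 and Fads2 lie close together on chromosome 19, at chr19:10182888-10196877 (plus strand) and chr19:10062765-10101746 (minus strand).

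Srebf1, the gene of the transcription factor, was at 205, 237 and 217 CPM in control, 265, 217 and 259 in hypoxia and 223, 235 and 254 with rSRGN. These ranges overlapped in all 3 comparisons, and hypoxia differed from control by 0.17 on the log2 scale (SE 0.083, adjusted p = 0.0741). Hypoxia replicate 2 was the lowest of its group and the 1 hypoxia library inside the control range, and without it the difference was 0.25 (adjusted p = 0.00333), still under the fold limit. It was 0.10 without control replicate 1 and 0.11 without hypoxia replicate 1, and 0.24 with library size alone (adjusted p = 0.0146). The counts give transcript level and say nothing of the cleaved, active SREBP-1 protein. Of the exon bases of Srebf1, 3.11% are shared with other genes, among them Rai1 on the opposite strand, and fragments there that overlapped both genes were left out, since strand was not used.

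**Figure D1:**
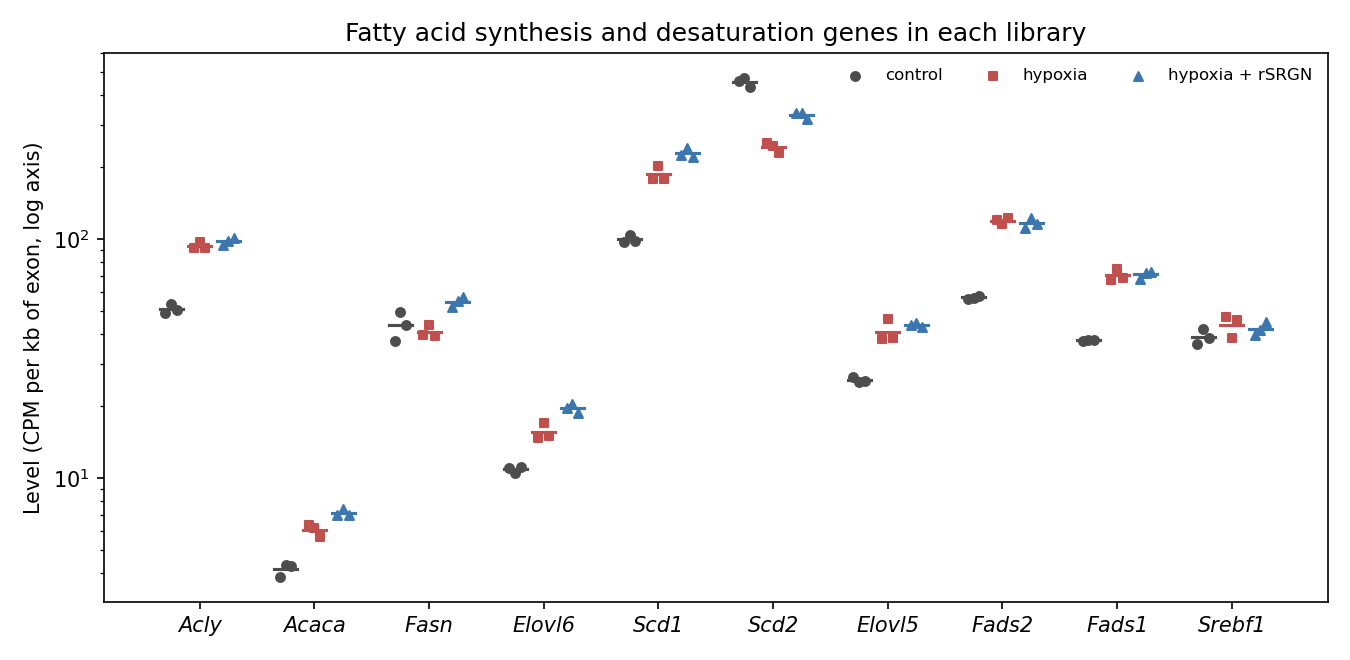
Level of each gene in CPM per kb of exon (log axis) in the 9 libraries, with grey circles for control, red squares for hypoxia and blue triangles for hypoxia + rSRGN, and a bar at each mean of 3 libraries. Scd2 drops from a mean of 455 to 243 in hypoxia while Scd1 goes from 99.6 to 187, and Fasn is highest with rSRGN at 54.6.

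Levels were compared between genes per kb of exon, in CPM per kb. In control, Scd2 stood at 455 ± 19.3 (SD, n = 3), followed by Scd1 at 99.6 ± 3.30 and Fads2 at 56.9 ± 0.829. Acly (51.0), Fasn (43.5), Srebf1 (39.0) and Fads1 (37.7) came next, and the library ranges of each neighbouring pair among these overlapped. Elovl5 (25.7), Elovl6 (10.9) and Acaca (4.14) were lowest and separate. The place of Acaca is uncertain in each group. Its exon length of 17074 bases exceeds its 9513-base transcript, and fragments shared with a pseudogene were left out, which both tend to lower its level. In hypoxia, Scd2 (243), Scd1 (187), Fads2 (119), Acly (93.7) and Fads1 (70.4) were each separate from the next. Srebf1 (43.8), Elovl5 and Fasn (both 40.9) overlapped, above Elovl6 (15.6) and Acaca (6.05). With rSRGN the order was the same at the top, and Fasn at 54.6 now stood apart from Elovl5 (43.7) and Srebf1 (42.2), which overlapped each other, above Elovl6 (19.6) and Acaca (7.14).

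**Figure D2:**
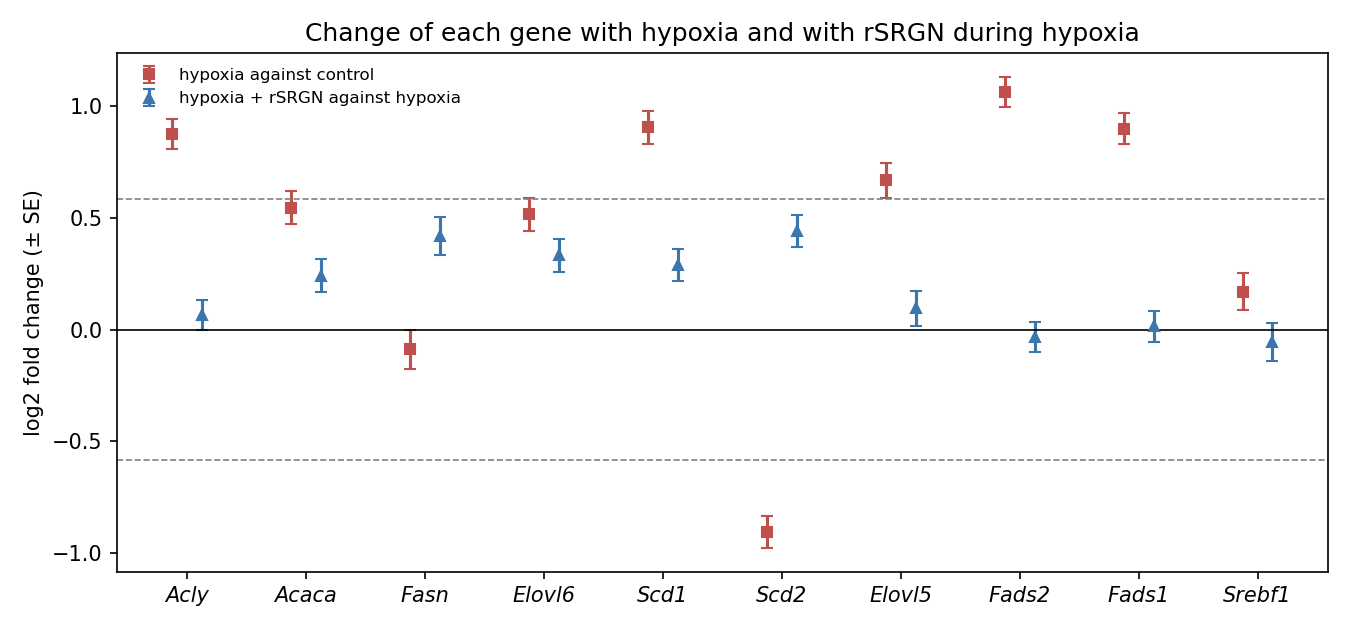
log2 fold change of each gene with its SE, as red squares for hypoxia against control and blue triangles for hypoxia + rSRGN against hypoxia, with dashed lines at the 1.5-fold limit. Fads2 has the highest red square at 1.07 and Scd2 the lowest at -0.91, while Scd2 (0.44) and Fasn (0.42) have the highest blue triangles.

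The second comparison asks what rSRGN adds during hypoxia. Scd2, Fasn, Elovl6, Scd1 and Acaca were all higher with rSRGN than in hypoxia alone, by 1.18- to 1.36-fold, and none of the 10 genes reached the fold limit. With that limit, 0 of 10 genes were called by edgeR, where the background was 3.13% of all genes tested (2.27% higher and 0.859% lower, and 1.84% in either direction without hypoxia replicate 3), and DESeq2 also called 0. At an unadjusted p below 0.05 with no fold limit, edgeR passed 5 of the 10 genes and 29.4% of all genes tested. At an adjusted p below 0.05 with no fold limit, 5 of the 10 were higher and 0 lower, where 16.6% of all genes tested passed, with 10.5% of all genes higher. The median log2 fold change was 0.17 over the 10 genes and -0.03 over all genes tested. Acly, Elovl5, Fads1, Fads2 and Srebf1 did not pass, and a difference between these and the other 5 was not tested.

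Scd2 was 1.36-fold higher with rSRGN (log2 0.44, SE 0.073, adjusted p = 0.000375) and Fasn 1.34-fold higher (log2 0.42, SE 0.086, adjusted p = 0.00213). Elovl6 differed by 0.33 on the log2 scale (SE 0.074, adjusted p = 0.00394), Scd1 by 0.29 (SE 0.074, adjusted p = 0.00986) and Acaca by 0.24 (SE 0.074, adjusted p = 0.0289). All libraries with rSRGN lay above all hypoxia libraries for each of these 5 genes, which had been picked by their adjusted p in the same comparison, and the same held for 16.5% of all genes tested. Scd2, Fasn and Elovl6 passed under each of 16 other scalings, filters, tools and left-out libraries. Scd1 passed under 15, failing without hypoxia + rSRGN replicate 2 (adjusted p = 0.0763). Acaca passed under 13, failing without hypoxia replicate 3 and without hypoxia + rSRGN replicate 1 or 2 (adjusted p up to 0.137). For the others the log2 differences were 0.09 for Elovl5 (SE 0.077), 0.06 for Acly (SE 0.069), 0.01 for Fads1 (SE 0.068), -0.03 for Fads2 (SE 0.067) and -0.06 for Srebf1 (SE 0.083), with adjusted p from 0.447 to 0.925. Elovl5 passed only when hypoxia replicate 2, its highest hypoxia library, was left out (log2 0.19, adjusted p = 0.0412). The cardiomyocyte genes given above were also higher with rSRGN, with a median log2 difference of 0.77 over 12 genes, and their part in these values was not tested.

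Against control, cultures with rSRGN had 7 of the 10 genes higher and 0 lower, where 48.8% of all genes tested were called, 24.1% higher and 24.7% lower. The median log2 fold change was 0.82 over the 10 genes and 0.01 over all genes tested. This comparison shares its libraries with the other comparisons, so the values are given side by side. Scd1 differed from control by 0.91 in hypoxia and by 1.20 with rSRGN, Elovl6 by 0.52 and 0.85, and Acaca by 0.55 and 0.79, all on the log2 scale. Acly (0.88 and 0.94), Elovl5 (0.67 and 0.76), Fads1 (0.90 and 0.91) and Fads2 (1.07 and 1.03) had like values in both. Fasn was 0.33 above control with rSRGN (1.26-fold, adjusted p = 0.00183), under the fold limit, and Scd2 remained below control at -0.47 (1.38-fold, adjusted p = 6.83e-06), also under it. Srebf1 differed by 0.11 (adjusted p = 0.233).

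The balance within enzyme pairs was then compared as log2 ratios per library, with an exact two-sided permutation test of 3 against 3, for which the smallest possible p is 0.1. There were 15 such tests (5 ratios in 3 comparisons), and a raw p of 0.1 became 0.125 after Benjamini-Hochberg adjustment, so none could pass 0.05. The ratio of Scd1 to Scd2 in hypoxia was 3.51-fold that in control (log2 difference 1.81, exact p = 0.1) with no overlap. Scd1 made up 17.96 ± 0.480% of the summed CPM per kb of both genes in control (SD, n = 3), 43.5 ± 1.89% in hypoxia and 40.9 ± 0.679% with rSRGN. The sum itself was 555 ± 21.6 CPM per kb in control, 429 ± 20.2 in hypoxia and 558 ± 19.8 with rSRGN. The sum with rSRGN overlapped that of control, 537 to 576 against 532 to 575, with a different share of Scd1, while hypoxia alone lay below both at 408 to 449. Between rSRGN and hypoxia the Scd1 to Scd2 ratio overlapped (log2 difference -0.15, exact p = 0.2).

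Acacb, the acetyl-CoA carboxylase at the outer mitochondrial membrane, has a coding sequence identical to that of Acaca at 72.3% of aligned bases. It was at 146, 176 and 167 CPM in control, 18.7, 13.98 and 10.9 in hypoxia and 20.2, 20.2 and 23.4 with rSRGN. Acacb fell 11.2-fold in hypoxia (log2 fold change -3.48, SE 0.13, adjusted p = 3.97e-16) while Acaca was 1.46-fold higher. The share of Acaca in the summed CPM per kb of both was 19.7 ± 0.596% in control (SD, n = 3), 80.3 ± 3.42% in hypoxia and 76.4 ± 1.95% with rSRGN, and the ratio differed 16.7-fold between hypoxia and control (exact p = 0.1). Acaca counts are less certain than those of the other genes. Of the 50-base windows of its transcript, 52.6% also occur in Gm5182, a processed pseudogene on chromosome 12. Fragments that the aligner placed at both were left out of the counts. For Acacb, 0% of windows were shared with another gene. The exon length used was 17074 bases for Acaca, with a transcript of 9513, and 9632 for Acacb, with a transcript of 8788. Both differences tend to lower the share of Acaca in each group, so the shares do not rank the genes. Exon length cancels in the change of the ratio between groups. Gm5182 had 180 to 190 counts per library in control, 141 to 156 in hypoxia and 165 to 245 with rSRGN, where Acaca had 1462 to 1628, 1664 to 2015 and 2012 to 2627.

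**Figure D3:**
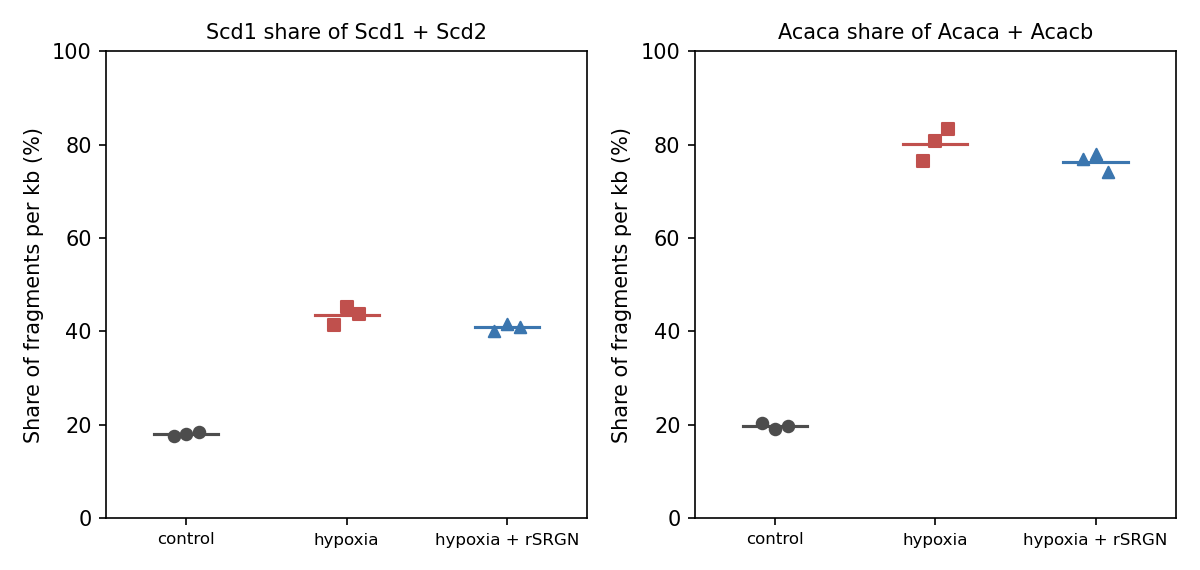
Share of Scd1 in Scd1 plus Scd2 (left) and of Acaca in Acaca plus Acacb (right), in percent of fragments per kb of exon, in each library (points) with the mean of 3 (bars). Scd1 goes from 17.96% in control to 43.5% in hypoxia, and Acaca from 19.7% to 80.3%. The Acaca share is likely understated in each group, as fragments shared with Gm5182 were left out and its exon length exceeds its transcript.

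Between hypoxia and control the other ratios moved less. The ratio of Fasn to Acaca was lower in hypoxia than in control by 0.63 on the log2 scale and higher with rSRGN than in hypoxia by 0.18, each without overlap (exact p = 0.1). The ratio of Elovl5 to Elovl6 was 0.15 higher in hypoxia than in control and 0.24 lower with rSRGN than in hypoxia, again without overlap (exact p = 0.1). The ratio of Fads1 to Fads2 was 0.17 lower in hypoxia than in control (exact p = 0.1) and differed by 0.05 between rSRGN and hypoxia (exact p = 0.6).

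The surrounding pathways are described by lists, whose counts stand beside the 26.4% of all genes tested that were higher in hypoxia and the 25.1% that were lower, with a median of 0.05. The supply list holds 16 genes of citrate, acetate and NADPH supply and of acyl-CoA and acyl-carrier metabolism. Of these, 6 were higher and 4 lower (median log2 fold change 0.31). Those called lower were all of the acyl-CoA and acyl-carrier part. The mitochondrial citrate carrier Slc25a1, which brings out the citrate that Acly splits, rose by 1.38, the acyl-CoA thioesterase Acot7 by 1.30 and the pentose phosphate enzyme transketolase (Tkt) by 1.13, all log2. Acacb (-3.48), the mitochondrial ketoacyl synthase Oxsm (-1.78) and the thioesterase Acot2 (-1.43) were the lowest called. Of 23 other elongation, desaturation and chain activation genes, 19 were tested, 9 were higher and 3 lower (median 0.44). Elovl4, an elongase of very long chains, rose by 1.18, Hsd17b12, the ketoacyl reductase that serves the elongases, by 1.09, and Cyb5a, the electron carrier of the desaturases, by 1.02. The desaturase Scd4 (-3.29), the acyl-CoA synthetase Acsl1 (-3.11) and the dehydratase Hacd1 (-0.94) fell. Scd3, at chr19:44203269-44244016, was too low to test, with 38 counts over all libraries.

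Of 21 genes that process or regulate SREBP and the lipogenic enzymes, 1 was higher and 6 lower (median -0.32). The gene that rose was Insig1, the protein that retains SCAP and itself a known SREBP target (log2 0.69, 1.61-fold). Mlxipl, the glucose-sensing factor ChREBP, fell (log2 -3.86), as did Prkaa2, a catalytic subunit of the AMP-activated kinase that inactivates acetyl-CoA carboxylase (-3.72), and Thrsp, a lipogenesis regulator (-1.87). Of 23 cholesterol synthesis and uptake genes, 15 rose and 0 fell (median 0.75), with the sterol reductase Tm7sf2 at 1.57 and squalene synthase Fdft1 at 1.20. Of 23 glycerolipid and lipid droplet genes, 22 were tested, 1 was higher and 12 lower (median -0.79). Agpat4, an acyltransferase, rose by 1.85, while the droplet proteins Cidea (-3.65) and Plin4 (-3.61) and the lipase family gene Pnpla3 (-2.06) fell. Pnpla3 was low, at 2.13 CPM in control and 0.50 in hypoxia (SE 0.51 on the log2 scale). All 22 fatty acid uptake and oxidation genes fell (median -1.57), with the fatty acid transporter Cd36 at -4.24, the binding protein Fabp3 at -2.92 and the thiolase Acaa2 at -2.27. Cardiomyocyte marker genes fell in the same comparison, with a median log2 fold change of -3.59 over 12 genes, and their part in these list values was not tested.

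**Figure D4:**
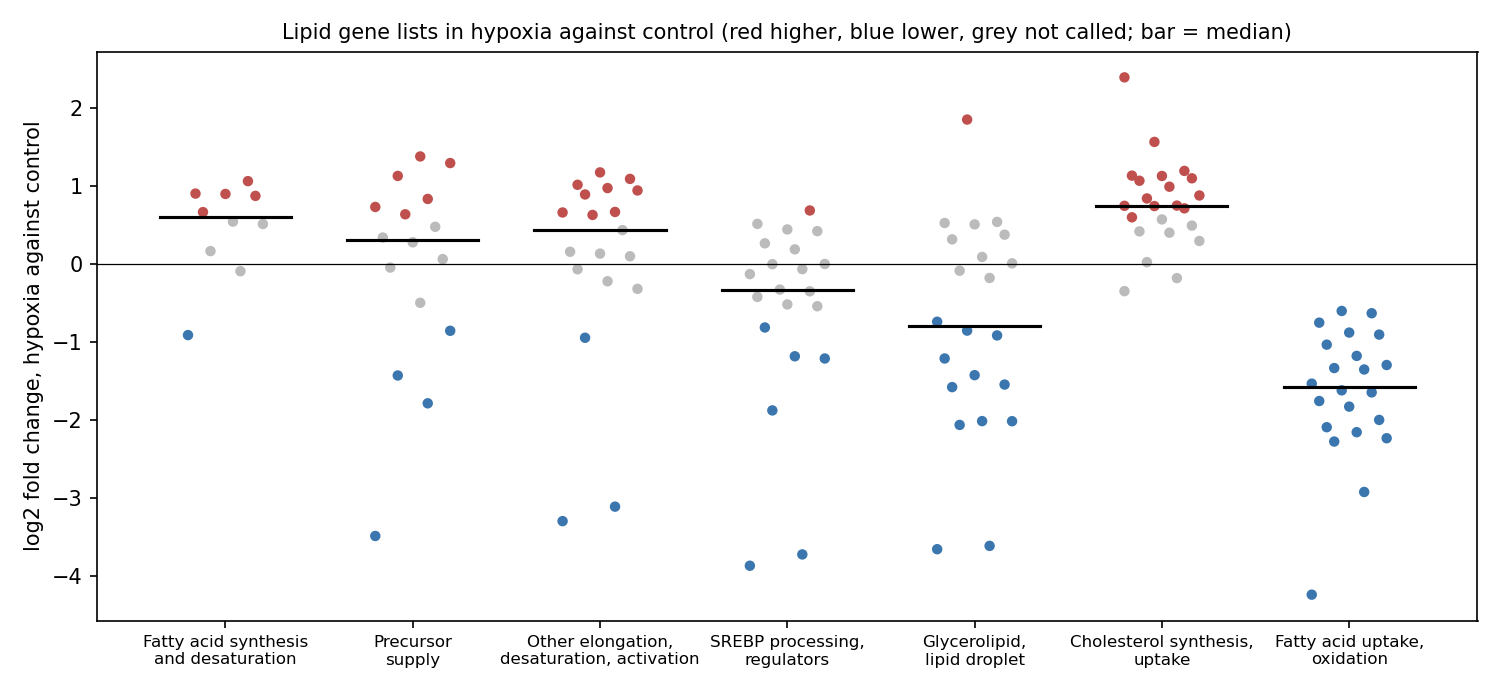
log2 fold change in hypoxia against control of every tested gene of 7 lipid gene lists (points, red called higher, blue called lower, grey not called), with a bar at the median of each list. The median is 0.61 for fatty acid synthesis and desaturation, 0.75 for cholesterol synthesis and uptake, and -1.57 for fatty acid uptake and oxidation, where all points are below 0.

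With rSRGN against hypoxia, few genes of these lists were called, as for all genes tested. Acsl1 was higher by 0.60 on the log2 scale, Prkaa2 by 0.70, the glycerol-phosphate acyltransferase Gpat3 by 0.97 and Cd36 by 0.90. Without hypoxia replicate 3, Gpat3 (1.10) and Cd36 (0.80) were still called, while Acsl1 (0.52) and Prkaa2 (0.56) missed the fold limit. Against control the same hypoxia libraries enter, so the values are given side by side. Gpat3 was at a log2 fold change of -1.42 against control in hypoxia and of -0.45 with rSRGN, where it was not called. Cd36 was at 18.4, 18.5 and 17.4 CPM with rSRGN against 9.83, 10.9 and 8.28 in hypoxia and 199, 166 and 182 in control. The cholesterol list had 0 of 23 genes called by edgeR or DESeq2 in this comparison (median -0.04), and 11 passed an unadjusted p below 0.05 with no fold limit, the rule that 29.4% of all genes passed. The supply list had 0 of 16 called by either tool (median -0.12), and 4 passed the unadjusted rule.

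The genes nearest in pattern were found by the root mean square (RMS) difference of log2 CPM over the 9 libraries, each gene centred on its control mean, among 14256 genes with a mean of at least 1 CPM. For Fasn these were Heatr5a (0.0876), Bcr (0.0885) and Baz1a (0.0905). For Srebf1 they were the desaturase family gene Fads3 (0.0533), Htt (0.0537) and Apopt1 (0.0587). Within the 10 genes the closest pair was Acly and Fads1 (0.0411), and each was the nearest of all 14256 genes to the other. Fads3, of the same chromosome 19 cluster as Fads1 and Fads2 (chr19:10041569-10060110), differed by 0.16 between hypoxia and control on the log2 scale and was not called.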

How the data were processed

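Poly(A)-enriched RNA of the 9 libraries was sequenced on an Illumina NovaSeq instrument. The authors deposited whole-number counts of paired fragments per gene, without normalization, made per the file headers with featureCounts 2.0.1 on exons of GENCODE release M25 with no strand option. The submitters' processing notes name HISAT2 and mm10, and the HISAT2 version is not given in the sources used here. By the default of featureCounts, fragments that the aligner placed at several sites, or that overlapped several genes, were left out.

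Groups and replicate numbers came from the labels. In edgeR 4.0.16 (R 4.3.3), filterByExpr kept 16762 of 55401 genes, TMM set the scaling, and 1 model with 3 group means covered the 9 libraries. Its quasi-likelihood test gave p-values, adjusted by the Benjamini-Hochberg method over all genes tested. CPM used TMM-scaled library sizes, and CPM per kb divided by the exon length in the table. The SE is the log2 fold change over the root of the F statistic. Any 2 libraries of a group differed by more than sampling noise (chi-square 3.81 to 14.6 per degree of freedom), and each was kept. On simulated data with 200 of 16762 genes changed 2-fold, 174 (87%) were called for hypoxia against control with 5 unchanged genes. For hypoxia + rSRGN against hypoxia, 167 (83.5%) were called with 5 unchanged genes. Smaller folds were not simulated, nor were changes in as many genes as the 8644 called in hypoxia against control.

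The 10 genes and the other lists were chosen with earlier results of these data known. Named genes were all 10, up to 3 called genes each way per list by size of change, the 3 nearest in pattern to Fasn and Srebf1, and the enzyme pairs, and 1 gene that this rule names is not reported here. The summed Scd1 and Scd2 level and the closest pair were added after values were seen, as was the fit of the listed genes without hypoxia replicate 3. Promoters came from the RefSeq table, and shared windows and coding identity from GENCODE release M21 transcripts (Biopython 1.88). Alternatives were DESeq2 1.42.0, RLE scaling, library size alone, other count filters, only the groups compared, a replicate block, other thresholds and each library left out. Figures were drawn with matplotlib 3.10.9.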

Additional observations from a re-analysis of the deposited data

How the results depend on the processing

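For the 10 genes in 3 comparisons, 480 alternative values were computed, and 473 kept direction and side of the threshold. In hypoxia against control, Acaca passed the fold limit with library size alone (0.62) and without hypoxia replicate 3 (0.59), and Elovl5 missed it without hypoxia replicate 2 (0.57), so 5 to 7 of the 10 genes were called when a library was left out. The sign of 2 differences near 0 between rSRGN and hypoxia turned. For Fads1 the log2 difference was -0.0070 with library size alone and -0.0145 to 0.0630 when a library was left out, and for Fads2 it was -0.0688 to 0.0015 when a library was left out. In that comparison the number of all genes called was 525, and it ranged from 321 (hypoxia replicate 3 left out) to 699 (hypoxia replicate 2 left out). It was 2790 with no fold limit and 899 at the unadjusted p with the fold limit kept, under which 0 of the 10 genes passed, and of the 10 genes 5 passed the adjusted p with no fold limit (3 to 6 with a library left out).

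The replicate numbers did not pair the libraries, as deviations of same-numbered libraries correlated at -0.0374 to 0.0215. A replicate block called 6, 0 and 7 of the 10 genes and 8550, 495 and 8096 of all genes in the 3 comparisons, where 8644, 525 and 8183 were called without it. With library size alone, the median of all genes in hypoxia against control was 0.12 in place of 0.05. With 3 libraries a group, the exact tests of ratios could not pass 0.05.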
